A study of Mus musculus with 8 samples.

Results

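The 10 genes described here encode proteins that bind microtubules or their tubulin subunits: the tubulin polymerization promoting proteins *Tppp* and *Tppp3*, the microtubule-associated proteins *Mapt* (tau), *Map1b* and *Map4*, the stathmins *Stmn1*, *Stmn2*, *Stmn3* and *Stmn4*, and doublecortin (*Dcx*). They were chosen by gene symbol, from a table of 23427 entries with FPKM values, in which mapped fragments are corrected for the length of the transcript and the depth of the library. The table lists 8 of them under these symbols, while *Map1b* and *Map4* stand in it under their older symbols *Mtap1b* and *Mtap4*. The mRNA came from primary mouse oligodendrocyte precursor cells (OPCs) of strain C57BL/6J and genotype WT, collected at Day 0, Day 1, Day 2 and Day 3 of differentiation into oligodendrocytes (OLs) in culture. Day 0 marks the removal of growth factors and the start of treatment with the thyroid hormone T3, so that it is the progenitor state and all later days share the T3 medium. The methods of the study describe immunopanning on an antibody against PDGFRα, of cells taken from the cortex of 3 pups on postnatal day 7, and describe the replicates as independent. Each day had 2 replicate libraries, 8 in all.

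Microtubules are hollow polymers of tubulin, and they fill the processes of an OL, where they carry mRNA and vesicles out to the growing myelin sheath. Structural microtubule-associated proteins and TPPP proteins bind and bundle the polymer, and TPPP is known in OLs as a protein of Golgi outposts, from which microtubules of the processes are nucleated. Stathmins bind free tubulin dimers and promote disassembly of the polymer, and STMN1 is best known for its role in dividing cells. Doublecortin is a microtubule-stabilizing protein of migrating young neurons.

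*Tppp* had the largest change of the 10 genes, and the primer list of the study holds an RT-qPCR assay for it, so its oligos are shown first. They were matched to the transcripts of GENCODE M21 (GRCm38). All 3 lie in the coding sequence of the 4-exon *Tppp* transcript of 5090 nt and give a product of 108 nt. The forward primer crosses the junction of exon 2 and exon 3, and its capitals mark the bases that belong to exon 3. The probe lies in exon 3 at chr13:74030763-74030792, and the reverse primer, which is written on the opposite strand, in exon 3 at chr13:74030826-74030845.
*Tppp* forward primer: cagcaagatcaaAGGAAAGTCCTG
*Tppp* probe: aggaccatcacctttgagcagttccaggag
*Tppp* reverse primer: gcctcctcgctgctcttatc

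In GRCm38 coordinates *Tppp* spans chr13:74009407-74035753 on the plus strand, *Tppp3* chr8:105467493-105471526 on the minus strand, and *Map1b* chr13:99421446-99516540 on the minus strand. *Mapt* spans chr11:104231390-104332090 and *Map4* chr9:109931460-110083955, both on the plus strand and both overlapped by an annotated antisense gene (*Gm11659* and *Gm43732*). Whether fragments were counted by strand is not given in the sources used here, so antisense reads cannot be told apart from those 2 genes. The same holds for *Tppp*, which is overlapped by a pseudogene on the minus strand (*Gm6263*). On their own strand, *Map1b* is overlapped by *5330431K02Rik*, *Stmn1* by *Gm23634*, and *Map4* by *Gm4734*, *Gm42433* and *Gm42432*. The stathmins lie on separate chromosomes, *Stmn1* at chr4:134468320-134473843, *Stmn2* at chr3:8509360-8561606, *Stmn3* at chr2:181306459-181314500 and *Stmn4* at chr14:66344296-66361680. *Dcx* lies at chrX:143855842-143933311.

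RefSeq (GRCm38.p6) upstream windows were at hand for 5 of the 10 genes (*Tppp*, *Map1b*, *Map4*, *Stmn3* and *Dcx*). Those of *Map1b*, which rose, and *Stmn3*, which was not called, are shown for their difference in base composition. Each is the 250 bases before the RefSeq start of the gene, which for *Map1b* lies 62 bases upstream of the GENCODE start given above, read on the strand of the gene, which is the minus strand for both. Capitals mark a GC box (GGGCGG or its complement CCGCCC, searched on both strands).
*Map1b*, chr13:99516603-99516852: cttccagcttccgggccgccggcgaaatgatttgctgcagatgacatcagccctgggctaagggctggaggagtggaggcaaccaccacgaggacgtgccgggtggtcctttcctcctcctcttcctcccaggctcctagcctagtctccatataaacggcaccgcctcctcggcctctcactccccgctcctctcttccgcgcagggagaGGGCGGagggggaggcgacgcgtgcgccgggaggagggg
*Stmn3*, chr2:181314501-181314750: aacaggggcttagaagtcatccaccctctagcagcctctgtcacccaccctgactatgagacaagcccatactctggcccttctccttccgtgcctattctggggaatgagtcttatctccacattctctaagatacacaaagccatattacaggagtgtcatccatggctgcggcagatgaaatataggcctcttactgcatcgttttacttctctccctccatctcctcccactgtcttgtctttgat
The *Map1b* window had 66.4% G and C, 19 CpG dinucleotides, 1 GC box and 1 TATA box (TATAAA). The *Stmn3* window had 48.8% G and C, 3 CpG dinucleotides and neither motif. Over all 32851 mouse windows of this length the median was 52.4% G and C and 6 CpG dinucleotides, a GC box was present in 32.7% and a TATA box in 12.4%. The *Tppp* window was also rich in G and C (71.6%, 19 CpG dinucleotides, 1 GC box). Richest was the window of *Map4*, not called from Day 0 to Day 3, at chr9:109931524-109931773 (74%, 36 CpG dinucleotides, 3 GC boxes). A second *Map4* window had 43.6% and 4 CpG dinucleotides, and the *Dcx* windows had 41.6% and 44.8%. These matches describe letters only.

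The depth of the libraries, read from the steps between low values, was 958000 to 1531000 fragments. A value resting on fewer than 3 fragments was treated as not measurable. Markers of OLs went with the labels. The summed FPKM of 8 OL markers rose from 1771 and 1290.3 at Day 0 (replicate 1 and replicate 2) to 13517 and 18048 at Day 3, and all 8 were called higher. The sum of 5 OPC markers went from 1402 and 1393 FPKM at Day 0 to 727 and 535 at Day 3. Of these 5, 4 were called lower and *Sox10* was not called. At Day 1 against Day 0, 4 were called lower and *Sox10* higher (means of 377 FPKM at Day 0 and 571 at Day 1). Markers of microglia and endothelial cells were at or near 0 in all 8 libraries, with *Aif1*, *Cx3cr1*, *Csf1r*, *Tmem119*, *Cldn5* and *Tek* at 0. The 6 astrocyte markers summed to 87.7, 154, 119 and 130.2 FPKM in replicate 1 at Day 0 to Day 3, and in replicate 2 their sum increased each day, from 295 to 489, 592 and 851 FPKM, with *Gjb6* at 0 throughout. From Day 0 to Day 3 none of the 5 tested was called by limma, while with the replicate number in the model *Gfap* (1.76, adjusted p = 1.27e-04) and *Aqp4* (1.62, adjusted p = 7.35e-04) were called higher. Their part in the changes of the 10 genes over the days was not tested. In a bulk culture, fewer cells of a type and less mRNA per cell cannot be told apart.

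The comparisons between days used limma on log2(FPKM + 1). The 12208 genes that reached 1 FPKM in 2 or more libraries were tested, and genes were called at a Benjamini-Hochberg adjusted p under 0.05 over all of them. Adjusted p-values of day comparisons given here come from this model unless another fit is named with them. The test covered 9 of the 10 genes, since *Stmn2* did not pass the filter. From Day 0 to Day 3, 5 of the 9 were higher (*Tppp*, *Map1b*, *Stmn4*, *Tppp3* and *Mapt*), 1 was lower (*Stmn1*) and 3 were not called (*Map4*, *Stmn3* and *Dcx*). Of all genes tested, 12.0% were called higher and 26.3% lower. The median log2 change of the 9 was 1.31, against -0.31 over all genes tested. Median ratio scaling brought the median of all genes to -0.04, with 2135 genes higher and 2047 lower in place of 1460 and 3207, and left the counts of the 9 genes as they were.

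**Figure D1:**
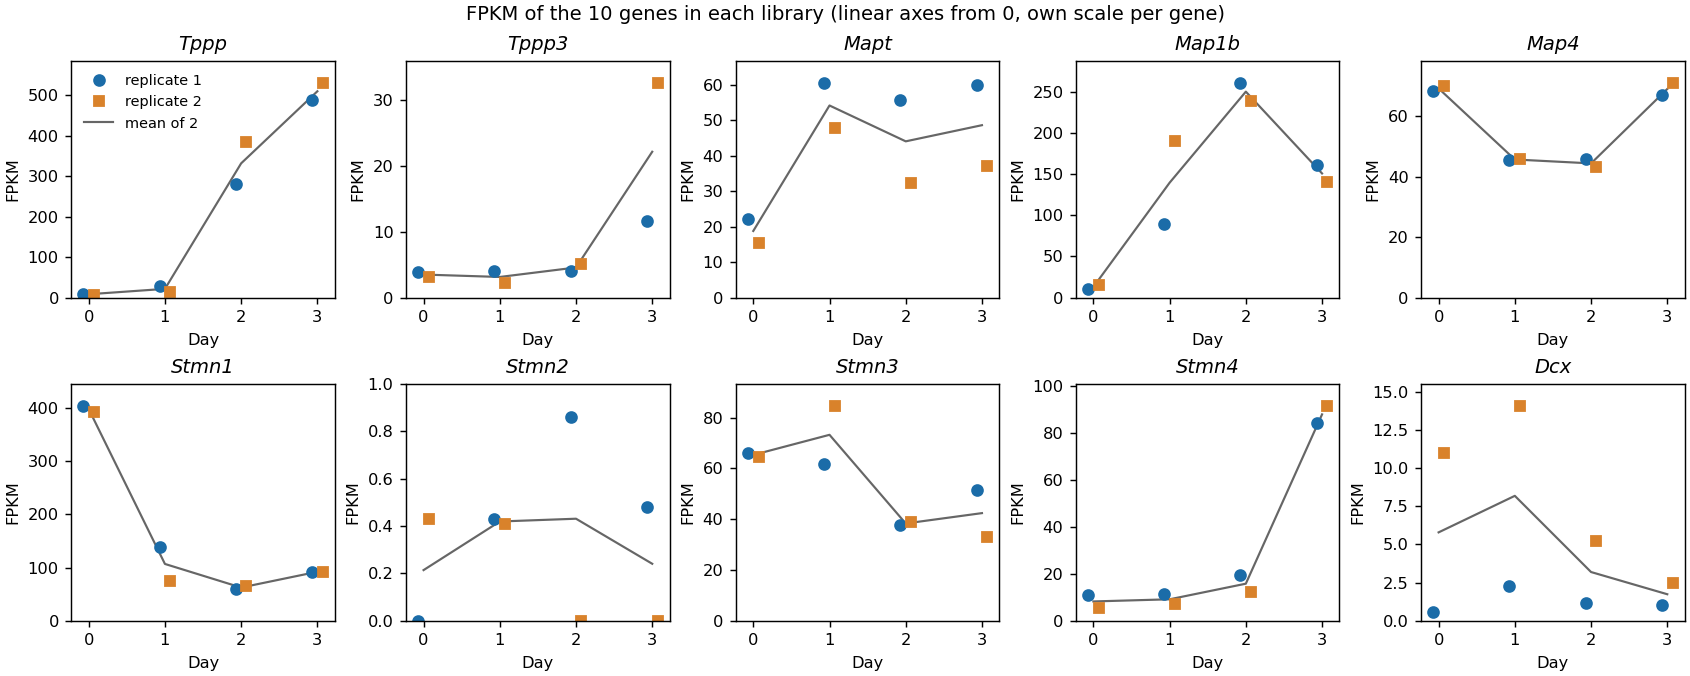
FPKM of each of the 10 genes (vertical axes, linear, from 0, with a scale of its own for each gene) against day (horizontal axes), with replicate 1 as blue circles, replicate 2 as orange squares and the mean of the 2 as a line. *Tppp* climbs to 488 and 531 FPKM at Day 3, *Stmn1* drops from 405 and 392 FPKM after Day 0, *Stmn4* stays under 20 FPKM until Day 3, and *Dcx* is higher in replicate 2 on all 4 days.

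*Tppp* was at 9.09 and 7.69 FPKM at Day 0, 29.5 and 13.8 at Day 1, 280.2 and 383 at Day 2, and 488 and 531 at Day 3. Every library of a later day was above every library of an earlier day. Its mean was 60.8-fold higher at Day 3 (509.9 ± 30.3 FPKM, SD, n = 2) than at Day 0 (8.39 ± 1.00). The log2 change of 5.77 (SE 0.31, adjusted p = 4.78e-05) ranked 4 among the rises of the 12208 genes tested. Most of it fell between Day 1 and Day 2 (log2 change 3.95, SE 0.31, adjusted p = 0.00330), a step called under every alternative except a fit of the 4 libraries of these days alone (adjusted p = 0.0885). The earlier step from Day 0 to Day 1 was smaller (1.18, adjusted p = 0.0408). That call was lost in 7 of the 8 fits that left out a library (all but the one without Day 1 replicate 2), with changes of 0.66 to 1.29 and adjusted p-values of 0.0565 to 0.221. It was also lost without a filter (adjusted p = 0.0709), without a trend (0.0875) and with the libraries of those days alone (0.144). The last step, from Day 2 to Day 3, did not pass the test (0.63, adjusted p = 0.393).

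*Tppp3* encodes a shorter relative of TPPP. It was at 3.82 and 3.18 FPKM at Day 0, 3.98 and 2.29 at Day 1, 4.01 and 5.13 at Day 2, and 11.6 and 32.6 at Day 3. Before Day 3 these values rest on about 2 to 10 fragments a library, by the lengths of its annotated transcripts. At Day 3 both libraries lay above all earlier ones, and replicate 2 was the higher of the pair. The change from Day 0 to Day 3 was 2.20 on the log2 scale (SE 0.45, adjusted p = 0.00613), and it was 2.90 without Day 3 replicate 1 and 1.49 without Day 3 replicate 2, called both times. No single step between neighbouring days was called, the largest being Day 2 to Day 3 (1.90, adjusted p = 0.114). That step reached 2.60 (adjusted p = 0.0313) without Day 3 replicate 1.

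FPKM is scaled to transcript length, so values of different genes were set side by side, with a limit. The gene model and the length used for each gene are not given. Annotated coding transcripts run from 293 to 5253 nt for *Mapt* and from 693 to 6091 nt for *Map4*. Shares of a summed FPKM are therefore approximate. *Tppp* made up 70.4% and 70.7% of the summed FPKM of the TPPP genes at Day 0, and 97.7% and 94.2% at Day 3. The log2 ratio of *Tppp* to *Tppp3* rose by 1.42 a day. Over 10 pairs of genes within a family, the slope on day was put to an exact permutation test (two-sided, 2520 arrangements of the 8 libraries). By this exact permutation test the *Tppp* slope had p = 0.0206 and an adjusted p of 0.0516, and was not called. The 10 pairs of the adjustment include those of *Stmn2*, whose values were all under 3 fragments. An adjustment without them was not made, and this slope lies close to the threshold. With arrangements within replicate numbers the adjusted p was 0.0868. With a library left out the slope ran from 1.32 (without Day 2 replicate 2) to 1.80 (without Day 3 replicate 2). In the same exact permutation test the adjusted p was 0.0741 with a pseudocount of 0.1. On ranks of FPKM in place of log2 values it was 0.807.

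*Map1b*, which encodes a microtubule-associated protein of growing processes, was at 10.8 and 15.1 FPKM at Day 0, 89.4 and 189.7 at Day 1, 261 and 239 at Day 2, and 161 and 141 at Day 3. All 6 later libraries were above both Day 0 libraries, and Day 2 was the highest day. The rise from Day 0 to Day 1 was 10.7-fold in mean FPKM (log2 change 3.25, SE 0.31, adjusted p = 9.33e-04). The Day 3 level remained 11.6-fold above Day 0 (log2 change 3.45, SE 0.31, adjusted p = 1.55e-04). Neither the further increase to Day 2 (0.93, adjusted p = 0.133) nor the decrease to Day 3 (-0.73, adjusted p = 0.339) passed the test. Without Day 1 replicate 2, the increase to Day 2 was 1.47 and passed it (adjusted p = 0.0299). The summed FPKM of 4 markers of committed OPCs (*Gpr17*, *Bmp4*, *Enpp6* and *Bcas1*) also rose and fell, with 748 and 837 at Day 0, 1887 and 2430.5 at Day 1, 2442 and 2131 at Day 2, and 1303 and 653 at Day 3. All 4 were called higher at Day 1 against Day 0, and their means then went different ways. From Day 1 to Day 2, *Enpp6* went from 239 to 501 FPKM and *Bcas1*, the largest part of the sum, from 1396 to 1465. In the same step *Gpr17* went from 451 to 301 FPKM and *Bmp4* from 72.2 to 20.3. All 4 were uncalled in that step. The part of such cells in the level of *Map1b* was not tested.

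*Mapt* encodes tau, known as a protein of axons and also present in OLs. It was at 22.3 and 15.3 FPKM at Day 0, 60.6 and 47.7 at Day 1, 55.8 and 32.4 at Day 2, and 60.0 and 37.3 at Day 3. Day 0 was below all later days without overlap, and replicate 2 was below replicate 1 on 4 of 4 days. The log2 change was 1.49 (SE 0.32, adjusted p = 0.0188) at Day 1 and 1.31 (SE 0.32, adjusted p = 0.0130) at Day 3, both against Day 0. The Day 3 call did not hold without Day 0 replicate 2 (1.05, adjusted p = 0.10) or Day 3 replicate 1 (0.97, adjusted p = 0.0766). The Day 1 call was lost without any 1 of the 4 libraries of those days, with changes of 1.24 to 1.75. Between the replicate series *Mapt* differed by -0.57 (replicate 2 against replicate 1, SE 0.11, adjusted p = 0.0678), which was not called.

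*Map4* encodes the broadly expressed microtubule-associated protein of non-neuronal cells. It was at 68.5 and 70.0 FPKM at Day 0, 45.5 and 45.9 at Day 1, 45.8 and 43.1 at Day 2, and 66.9 and 71.2 at Day 3. The libraries of Day 1 and Day 2 were all below those of Day 0 and Day 3, which overlapped each other. The change to Day 1 was called (-0.59, SE 0.12, adjusted p = 0.0169), but not without Day 0 replicate 1 (adjusted p = 0.0951), Day 0 replicate 2 (0.111), Day 1 replicate 1 (0.0625) or Day 1 replicate 2 (0.0789). The return between Day 2 and Day 3 had a similar size (0.62, SE 0.12) and was not called (adjusted p = 0.0848). From Day 0 to Day 3 the difference was -0.00 with a 95% interval of -0.29 to 0.28. Because the median gene moved by -0.31, *Map4* was 0.31 above the median gene on the same scale, and median ratio scaling turned its sign (0.31).

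On Day 0 *Map4* had the highest FPKM of these 3 genes, with 67.4% and 69.7% of their summed FPKM in the 2 libraries. *Map1b* held 10.7% and 15.1% of the sum at Day 0, 72.0% and 76.0% at Day 2, and 55.9% and 56.5% at Day 3. The sum itself rose from 101 FPKM at Day 0 to 339 at Day 2 (means of 2 libraries). Slopes of the log2 ratio on day were not called for any of the 3 pairs, with adjusted p-values of 0.0862 for *Mapt* against *Map1b*, 0.0862 for *Map1b* against *Map4* and 0.226 for *Mapt* against *Map4* (exact permutation test over the 10 pairs). A slope on day is linear, whereas *Map1b* and *Map4* turned after Day 2.

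*Stmn1*, the stathmin of dividing cells, was at 405 and 392 FPKM at Day 0, 138 and 75.2 at Day 1, 60.4 and 64.5 at Day 2, and 91.7 and 92.6 at Day 3. The 2 Day 0 libraries stood far above the other 6. Its mean was 3.73-fold lower at Day 1 than at Day 0 (log2 change -1.95, SE 0.24, adjusted p = 0.00168) and 4.32-fold lower at Day 3 (-2.10, SE 0.24, adjusted p = 4.15e-04). The changes from Day 1 to Day 2 (-0.70, adjusted p = 0.143) and from Day 2 to Day 3 (0.55, adjusted p = 0.345) were not called, although the first was -1.14 and called (adjusted p = 0.0207) without Day 1 replicate 2. Its lowest value in any library was 60.4 FPKM.

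The summed FPKM of 6 markers of dividing cells fell with *Stmn1*, from 998 and 754 at Day 0 to 55.5 and 13.6 at Day 1, and it was between 8.87 and 21.3 afterwards. All 6 were called lower at Day 1 and at Day 3 against Day 0, with a median log2 change of -5.07 at Day 3. Relative to Day 0, this sum fell to a far smaller remainder than *Stmn1* did. The part of these cells in the level of *Stmn1* was not tested.

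*Stmn4*, a stathmin known from neurons, was at 11.1 and 5.29 FPKM at Day 0, 11.2 and 6.98 at Day 1, 19.3 and 12.2 at Day 2, and 84.1 and 91.5 at Day 3. The libraries of Day 0 and Day 1 overlapped, those of Day 2 were slightly higher, and both Day 3 libraries lay above all others. Up to Day 2 a library held about 3 to 32 fragments of this gene, and at Day 3 between 37 and 125. The rise from Day 0 to Day 3 was 10.7-fold in mean FPKM (log2 change 3.34, SE 0.35, adjusted p = 2.96e-04). Its last step, from Day 2 to Day 3, was called with all libraries (2.44, SE 0.35, adjusted p = 0.0424). This step was not called in any of the 8 fits that left out a library (2.13 to 2.75). Over all genes tested, 30 were called higher and 6 lower in this step. Without a filter, without a trend or with only the days compared, no gene at all was called in it.

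*Stmn3*, another stathmin of neural tissue, was at 66.0 and 64.6 FPKM at Day 0, 61.7 and 84.7 at Day 1, 37.6 and 39.0 at Day 2, and 51.6 and 33.1 at Day 3. The libraries of Day 2 and Day 3 were below those of Day 0 and Day 1. The change from Day 0 to Day 3 was -0.65 (SE 0.22, 95% interval -1.16 to -0.13) and missed the threshold (adjusted p = 0.0517). Without Day 3 replicate 1 it was -0.96 (adjusted p = 0.0127), without Day 3 replicate 2 it was -0.33 (adjusted p = 0.274), and it was also called without Day 1 replicate 1 (adjusted p = 0.0459) or Day 1 replicate 2 (0.0464). Relative to the median gene it was -0.33. The step from Day 1 to Day 2 was -0.90 (adjusted p = 0.0676).

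*Stmn2*, known from neurons with growing axons, was listed at 0 FPKM in 3 libraries and at 0.411 to 0.862 FPKM in the other 5, which corresponds to 1 or 2 fragments each. All 8 values were under 3 fragments, so that no level or change could be given at this depth.

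The makeup of the stathmin mRNA thus shifted between members while its sum went from 472 FPKM at Day 0 to 189.6 at Day 1, 117 at Day 2 and 223 at Day 3 (means of 2 libraries). *Stmn1* held 84.0% and 84.8% of the sum at Day 0, and 40.2% and 42.6% at Day 3. *Stmn4* held 2.31% and 1.14% at Day 0, 16.4% and 10.5% at Day 2, and 36.9% and 42.1% at Day 3. The mean share of *Stmn3* was highest at Day 1 (39.9%), where its libraries lay apart at 29.1% and 50.6%. At Day 2 they were at 31.8% and 33.7%, both above Day 1 replicate 1. The log2 ratio of *Stmn1* to *Stmn4* fell by 1.78 a day, with p = 7.94e-04, the smallest p that these arrangements allow, and an adjusted p of 0.00794 (exact permutation test over the 10 pairs). The ratio of *Stmn3* to *Stmn4* fell by 1.36 a day (exact permutation p = 0.00397, adjusted p = 0.0198), a call lost without Day 1 replicate 1 (adjusted p = 0.0635) or Day 2 replicate 1 (0.0540). The ratio of *Stmn1* to *Stmn3* was not called (-0.42 a day, adjusted p = 0.215). The pair of *Stmn2* and *Stmn4* also passed, but it cannot be read because *Stmn2* was under 3 fragments.

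**Figure D2:**
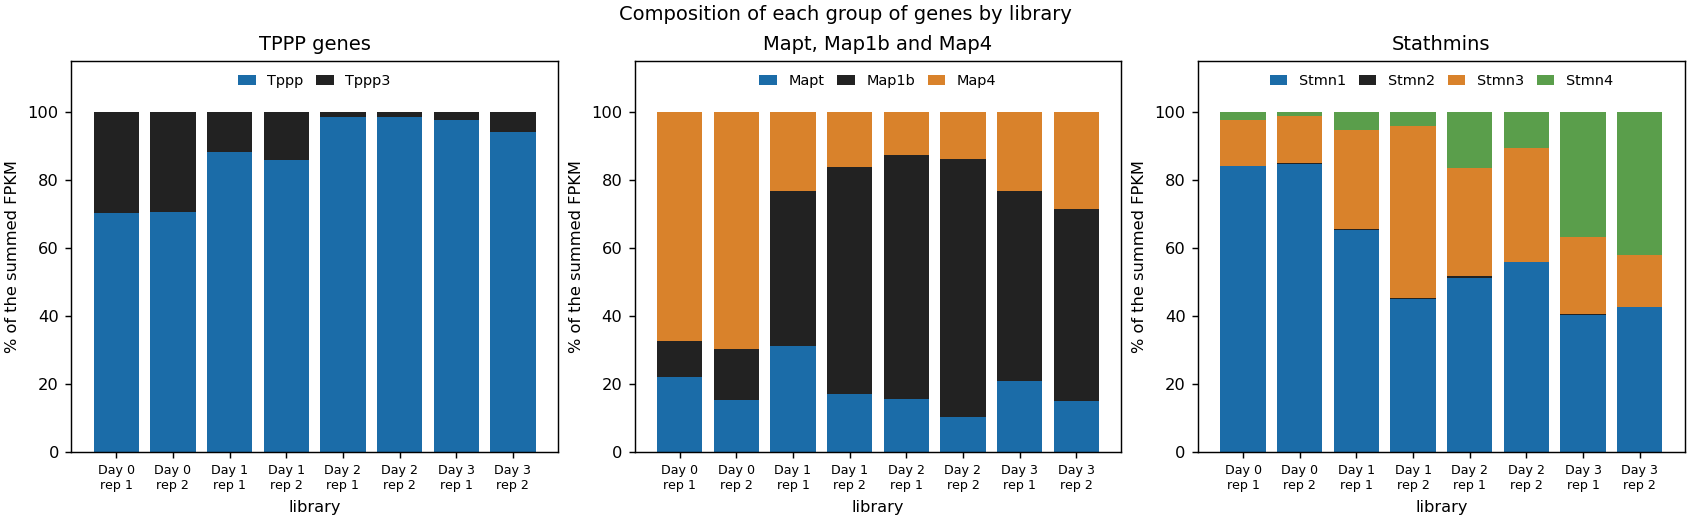
Share of each gene in the summed FPKM of its family (vertical axes, percent) in each of the 8 libraries (horizontal axes), for the TPPP genes, for *Mapt*, *Map1b* and *Map4*, and for the stathmins. *Map1b* replaces *Map4* as the largest share of its group from Day 1 on, and *Stmn4* reaches 36.9% and 42.1% of the stathmin sum at Day 3.

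*Dcx* was at 0.581 and 11.0 FPKM at Day 0, 2.27 and 14.1 at Day 1, 1.19 and 5.19 at Day 2, and 1.02 and 2.44 at Day 3. Replicate 2 was higher on 4 of 4 days. By the lengths of its annotated transcripts, Day 0 rests on about 1 to 8 fragments in replicate 1 and 18 to 122 in replicate 2. In replicate 1, Day 2 rests on about 2 to 13 and Day 3 on 1 to 10. The replicate 1 values of these days may thus lie under 3 fragments. No comparison of days was called, and the change from Day 0 to Day 3 had a 95% interval of -3.07 to 1.63 around -0.72. The difference of replicate 2 from replicate 1, with the day in the model, was 1.85 (SE 0.34, adjusted p = 0.0510). It just missed the threshold and passed it under median ratio scaling (1.87). The astrocyte marker sum was also higher in replicate 2 on 4 of 4 days, with *Gfap* at 14.7 to 45.5 FPKM in replicate 1 and at 154 to 603 in replicate 2, and 3 of the 5 tested astrocyte markers were called higher there. Their part in *Dcx* was not tested.

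None of the 9 genes was called between the replicate series in either direction by limma, against 0.680% of all genes called higher and 0.369% lower in replicate 2. At an unadjusted limma p under 0.05, 1 was higher (*Dcx*) and 2 were lower (*Mapt* and *Stmn4*). The share of all genes past that unadjusted cut is not given here.

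By steps, 3 of the 9 were higher (*Map1b*, *Mapt* and *Tppp*) and 2 lower (*Stmn1* and *Map4*) from Day 0 to Day 1, where 5.04% of all genes were called higher and 7.56% lower. From Day 1 to Day 2 only *Tppp* was called, higher, against 2.16% of genes higher and 1.73% lower. None was called lower by limma in that step. At an unadjusted limma p under 0.05, 2 were higher (*Tppp* and *Map1b*) and 2 lower (*Stmn3* and *Stmn1*). From Day 2 to Day 3 *Stmn4* was called higher and none lower, where 0.246% of all genes were called higher and 0.0491% lower. At an unadjusted limma p under 0.05, 3 were higher there (*Stmn4*, *Map4* and *Tppp3*) and 1 lower (*Map1b*). The shares of all genes at an unadjusted p under 0.05 are not given here.

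The courses differed in when the change took place. Expressed as a share of the log2 change from Day 0 to Day 3, the Day 1 mean had reached 94.0% for *Map1b*, 93.0% for *Stmn1* and 114% for *Mapt*. It had reached 20.5% for *Tppp*, 5.37% for *Stmn4* and -6.79% for *Tppp3*. By Day 2 *Tppp* stood at 89.0%, and *Stmn4* and *Tppp3* still at 27.1% and 13.8%. Single libraries spread around these means, *Tppp* at Day 1 being at 29.5% in replicate 1 and 11.5% in replicate 2, and *Stmn1* at 72.3% and 114%. These shares are descriptions, without a test of the difference between genes.

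**Figure D3:**
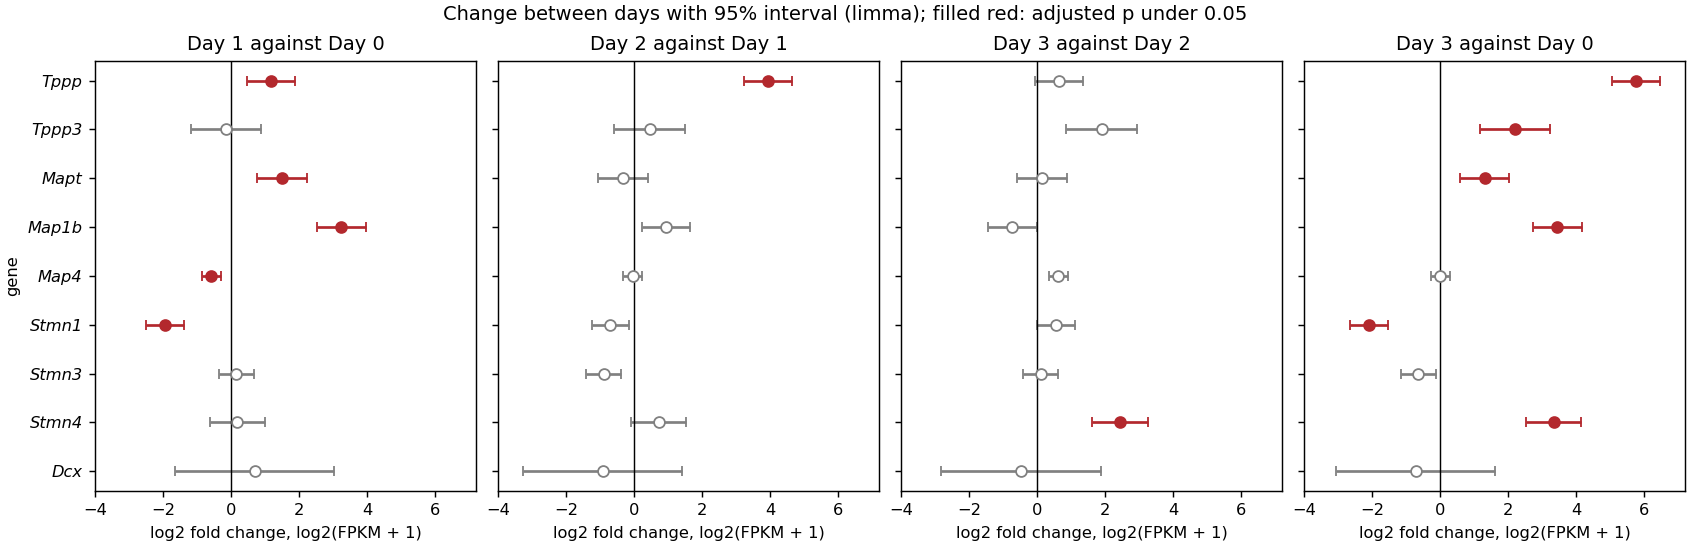
log2 change (horizontal axes, log2 of FPKM + 1) of each of the 9 genes tested, for the 3 steps between neighbouring days and for Day 3 against Day 0, with 95% intervals from limma. Filled red points passed an adjusted p under 0.05: *Map1b*, *Mapt*, *Tppp*, *Map4* and *Stmn1* in the first step, *Tppp* in the second, *Stmn4* in the third.

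For each gene, the genes with the most similar course were sought among 6482 genes with a mean of at least 10 FPKM, by Pearson's r of log2(FPKM + 1) over the 8 libraries. These correlations describe 8 libraries that share their days and replicate series. *Tppp* was closest to *Fgfr2* (r = 0.998), *Ubl3* (0.997) and *Dync1li2* (0.996), the last of which encodes a light intermediate chain of the microtubule motor dynein. *Map1b* was closest to *Vldlr* (0.997), to *Enpp6* (0.996), a marker of newly forming OLs, and to *4732418C07Rik* (0.991). *Enpp6* was at 11.1 and 14.6 FPKM at Day 0, reached 524 and 477 at Day 2 and was back at 299 and 174 at Day 3. The genes closest to *Stmn1* were *D2Ertd750e* (0.996) and the cell division genes *Mki67* (0.996) and *Ccnb1* (0.992). *Stmn4* was closest to *Inpp5a* (0.980), *Syngr1* (0.980) and the tubulin cofactor partner *Arl2* (0.972). *Map4* was closest to *Slc3a2* (0.972), *Mapt* to *Tle2* (0.973), *Stmn3* to *Dot1l* (0.984), *Tppp3* to *Ccdc92* (0.983) and *Dcx* to *Tmem223* (0.963).

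Several of these genes are best known from neurons, so the 13 neuron markers were read in the same libraries. Their summed FPKM was 98.1 and 72.6 at Day 0, 137 and 118 at Day 1, 275 and 267 at Day 2, and 411 and 319.6 at Day 3. This rise was carried by *Tubb3* (60.2 and 20.8 FPKM at Day 0, 231 and 113 at Day 3) and *Elavl3* (19.2 and 22.4 FPKM at Day 0, 177 and 201 at Day 3), the 2 of the 7 tested that were called higher. *Nefl*, *Nefm* and *Elavl4* were called lower, and *Slc17a6*, *Gad1*, *Gad2* and *Slc32a1*, which define excitatory and inhibitory neurons, were at 0 in all 8 libraries. The part of neurons in the levels of *Mapt*, *Map1b* and *Stmn4* was not tested.

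Another 86 genes of microtubule biology, in 6 lists chosen by function, were read beside the 10, and 82 of them were tested. From Day 0 to Day 3, 21 of the 82 were higher (25.6%), 26 lower (31.7%) and 35 not called, where 12.0% of all genes tested were called higher and 26.3% lower. With the replicate block the lower genes numbered 29, the added ones being *Dclk1*, *Gas2l1* and *Agbl5*. Over all 12208 genes tested, the block called 3551 lower, in place of 3207 without it. The other structural microtubule-associated proteins and doublecortin kinases had 6 of 12 higher and 4 lower, with a median log2 change of 0.49. Among them *Map6d1*, related to a cold-stable microtubule protein, rose from 6.57 and 6.97 FPKM to 87.1 and 104.9 (3.64, SE 0.31, adjusted p = 1.30e-04). *Map7*, a recruiter of the motor kinesin, rose by 3.55 and *Mtus1* by 3.06 on the log2 scale. *Map2*, a protein of neuronal dendrites that is also found in young OLs, fell from 188 and 203 FPKM at Day 0 to 51.0 and 28.2 at Day 3 (-2.33, SE 0.27, adjusted p = 4.15e-04).

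Of the 22 proteins that bind or crosslink microtubule ends, 6 were higher and 5 lower, with a median of -0.23. *Tacc2* (-3.37), *Tacc3* (-3.35) and *Gas2l3* (-2.94) fell most, the last 2 of which act on the spindle or the midzone of dividing cells. *Mapre2*, an end binding protein, rose by 1.53 on the log2 scale. Severing and depolymerising proteins had 2 of 12 higher and 6 lower, with a median of -0.83. The kinesins *Kif2c* (-5.00), *Kif18b* (-4.12) and *Kif18a* (-3.37), which shorten spindle microtubules in mitosis, and *Fignl1* (-2.98) fell most. *Kif2c* was at 52.3 and 33.7 FPKM at Day 0 and at 0.324 and 0.369 at Day 3. As with *Stmn1*, the markers of dividing cells fell in the same libraries, and their part was not tested.

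Tubulin modifying enzymes had 4 of 14 higher and 7 lower, with a median of -0.82. *Sirt2*, a tubulin deacetylase abundant in OLs, rose from 173 and 190.0 FPKM at Day 0 to 782 and 1416 at Day 1 and 2532 and 2050.4 at Day 3 (3.65, SE 0.26, adjusted p = 8.02e-05). *Ttll5*, which adds glutamate to tubulin, rose by 1.93, while *Ttl*, which restores the C-terminal tyrosine, changed by -1.52 and *Vash2*, which removes it, by -1.33. Tubulin folding cofactors had 2 of 7 higher (*Arl2*, 1.80, and *Tbcel*, 1.42) and 2 lower (*Tbca*, -1.50, and *Tbce*, -1.17), with a median of 0.15. *Arl2* was the only one of the 82 called between Day 2 and Day 3 in the model without a block, and with the replicate block *Ttll7* (1.60, adjusted p = 0.0415) and *Fyn* (-1.33, adjusted p = 0.0405) were called as well. Kinases of tau and the related proteins had 1 of 15 higher (*Uhmk1*, 1.59, a kinase of stathmin) and 2 lower (*Mark1*, -1.38, a kinase of tau, and *Rock2*, -0.71). Their median was 0.01. The genes called only with the replicate block were named after their values were seen, and all others named in these lists had an adjusted p under 0.05 without it.

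**Figure D4:**
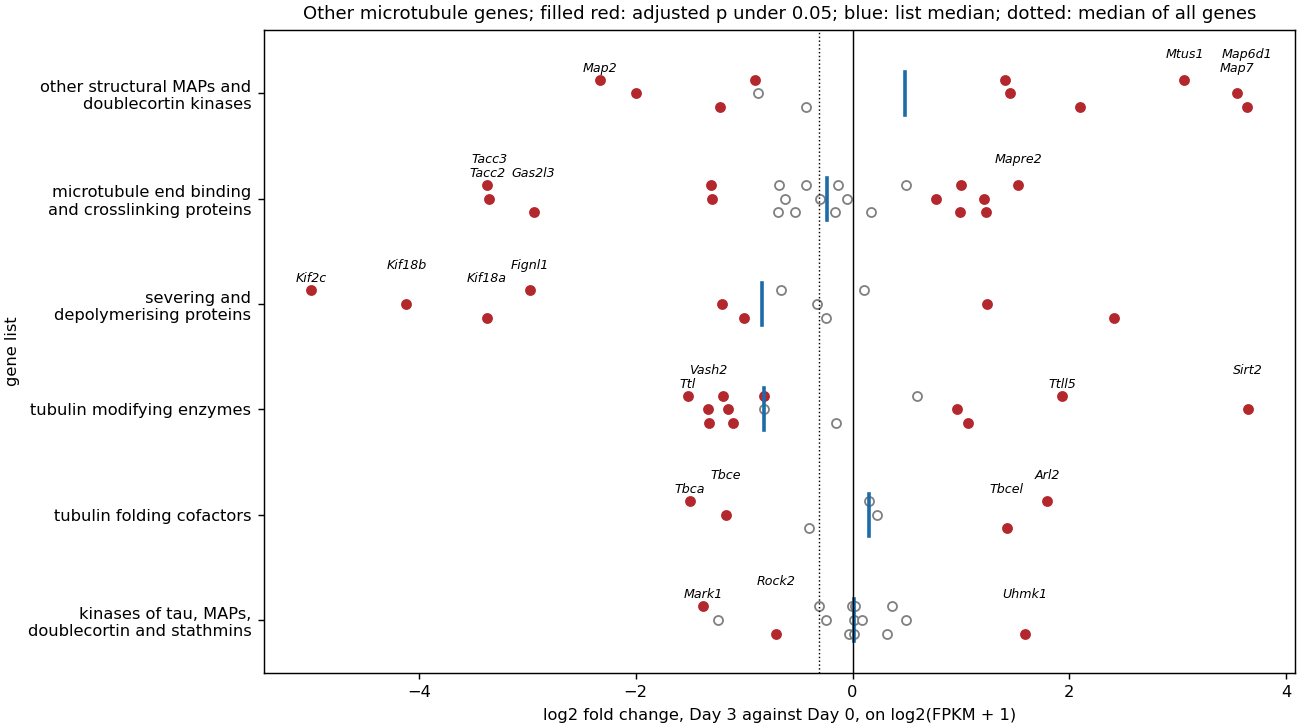
log2 change from Day 0 to Day 3 (horizontal axis, log2 of FPKM + 1) of the 82 other microtubule genes tested, by list (vertical axis). Red filled points passed an adjusted p under 0.05, open points did not, blue bars are list medians and the dotted line is the median of all genes (-0.31), and the severing and depolymerising list reaches -5.00 (*Kif2c*).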

How the data were processed

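Stranded, polyA-selected mRNA libraries of mouse OPCs were read as 75-nt paired ends. Using OmicSoft ArrayStudio, the authors turned the reads into FPKM and deposited them as 1 table, with a column for each library and replicates not pooled. The labels name mm10. The aligner, the gene model and the use of strand are not given in the sources used here. FPKM corrects for depth and gene length, and no further normalization between libraries is described. The study names DESeq2, which needs counts and was not used. The labels and the methods describe the culture medium and the RNA kit differently.

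Days and replicate numbers came from the labels. The 10 genes and all gene lists were chosen with earlier results of these data known. Of the other listed genes, 11 were also found under older symbols. Tests ran on log2(FPKM + 1) by limma 3.58.1 (lmFit, contrasts.fit, eBayes with a trend) under R 4.3.3, with the day as a factor in all 8 libraries. On this scale changes of low genes are understated. With 2 libraries in each of 2 groups, the smallest permutation p would be 0.333. Slopes of log2 ratios used all 2520 arrangements of the libraries on the days, or 576 within replicate numbers. Deviations of same-numbered libraries from their day means correlated at 0.16 to 0.29 over the 6 pairs of days, so the numbers of the labels were used as pairs in the replicate block. Depth was estimated from the steps of low FPKM values, of which 46.7% to 53.9% a library were whole multiples of 1 fragment within 0.02. Intervals and limits cover counting error and the spread between libraries only. From each of the 6 lists, up to 4 genes were named, those with the largest change among called genes whose Day 0 and Day 3 libraries did not overlap. Other steps used Python 3.11.15, numpy 2.4.6, pandas 2.3.3 and matplotlib 3.10.9.

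The alternatives were a pseudocount of 0.1, no filter (15267 genes), an FPKM of at least 10 in 1 library (8202 genes), median ratio scaling, rescaling to an equal sum, quantile normalization, eBayes with no trend, a fit of the compared days alone, the replicate block, and the removal of each library. For the pair slopes, ranks of FPKM were also run.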

Additional observations from a re-analysis of the deposited data

How the results depend on the processing

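The calls of *Tppp*, *Map1b*, *Stmn4*, *Stmn1* and *Tppp3* from Day 0 to Day 3, and of *Map1b* and *Stmn1* from Day 0 to Day 1, held under every alternative run. The higher call of *Mapt* from Day 0 to Day 3 did not hold without Day 0 replicate 2 or Day 3 replicate 1. The replicate block changed no call of the 9 genes between days (5 higher and 1 lower from Day 0 to Day 3). It took no call from the other listed genes and added some, among them *Gfap*, *Aqp4* and, lower, *Snap25* from Day 0 to Day 3. Within replicate numbers 2 of the 10 pair slopes were called, the pair of *Stmn2* and *Stmn4* being lost (adjusted p = 0.0694). Lower calls from Day 0 to Day 3 numbered 2 with the filter at 10 FPKM, which added *Stmn3*. Lower calls from Day 0 to Day 1 numbered 1 without a trend. Among the higher calls from Day 0 to Day 1, that of *Tppp* was lost without a filter, without a trend and with only the days compared. The higher call from Day 1 to Day 2 was lost with only the days compared, where no gene of all those tested was called. That from Day 2 to Day 3 was lost (0 of the 9 genes) with a pseudocount of 0.1, without a filter, with only the days compared and without a trend. Except with the pseudocount of 0.1, these fits called no gene of all those tested in that step. Between replicates 1 gene (*Dcx*) was higher under median ratio scaling.

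With each library left out in turn, counts ran from 1 to 2 lower from Day 0 to Day 3, from 1 to 2 higher and 1 to 2 lower from Day 0 to Day 1, from 1 to 2 higher and 0 to 1 lower from Day 1 to Day 2, from 0 to 1 higher from Day 2 to Day 3, and from 1 to 3 pair slopes. The log2 change turned its sign for *Map4* from Day 0 to Day 3 (0.15 with the same sum, 0.31 with median ratio scaling, 0.012 with quantile normalization, -0.048 to 0.039 with a library left out) and from Day 1 to Day 2 (0.15 with median ratio scaling, 0.011 with quantile normalization, -0.084 to 0.0017 with a library left out). It turned for *Tppp3* from Day 0 to Day 1 (0.13 with quantile normalization, -0.45 to 0.15 with a library left out) and for *Stmn3* between replicates (0.013 with median ratio scaling). Uncalled changes that turned only with a library left out were those from Day 0 to Day 1 of *Dcx* (-0.77 to 2.15), *Stmn3* (-0.080 to 0.37) and *Stmn4* (-0.29 to 0.65), from Day 1 to Day 2 of *Dcx* (-2.04 to 0.17) and *Mapt* (-0.72 to 0.051), from Day 2 to Day 3 of *Dcx* (-1.23 to 0.27), *Mapt* (-0.23 to 0.53) and *Stmn3* (-0.21 to 0.42), and from Day 0 to Day 3 of *Dcx* (-2.18 to 0.74). The causes were not tested. Over all genes, median ratio scaling gave 371 higher and 103 lower from Day 1 to Day 2 in place of 264 and 211, and the replicate block gave 367 and 436. With the replicate block 119 were higher and 44 lower from Day 2 to Day 3, in place of 30 and 6. Depth limits *Stmn2*, *Tppp3* and *Stmn4* before Day 3, and *Dcx*, mainly in replicate 1, all of which rest on few fragments. With 2 libraries a day, the spread is borrowed across days and genes.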
